A study of Bos taurus with 12 samples.

Results

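The genes described here encode the proteasome: its subunits, its activators and inhibitor, and the chaperones that assemble it. They were taken as every gene of the bovine array whose symbol starts with PSM, a letter from A to G and a digit, where the probe set carried a single symbol. This gave 40 of 9155 genes: 16 of the 20S core particle (6 PSMA and 10 PSMB), 16 of the 19S regulatory particle (6 PSMC and 10 PSMD), and 8 of the activator and assembly class (4 PSME, 1 PSMF and 3 PSMG). Of 50 cattle genes in the RefSeq table whose symbols match, the other 10 (PSMA2, PSMA8, PSMB11, PSMC3IP, PSMD3, PSMD7, PSMD8, PSMD12, PSME3 and PSMG4) were not analysed here. A gene with several probe sets, as 6 had, was represented by the one with the highest mean over 12 arrays. A probe set was tested if its mean log2 signal lay above the 40th percentile, and 39 members passed. The member below it was PSMB9. PSME3IP1 met the naming rule as well, although its product binds the activator PSME3 and is no subunit.

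Oocytes of Japanese Black cattle were compared in 4 groups of 3 arrays each. MII oocytes of prepubertal heifers and of adult cows had been matured in vitro for 20 to 22 h and chosen by an extruded polar body. GV (germinal vesicle) oocytes of prepubertal heifers and of adult cows were taken straight after aspiration. Prepubertal donors were 9 to 12 months old, an adult age is not given, and follicles in both ages measured 2 to 8 mm. No gene was manipulated, and 50 oocytes stripped of their cumulus were pooled for each array and their RNA amplified. The labels do not say that the pools came from different animals, so p-values may measure only the spread between pools. In a pool, a signal lower in every oocyte and one lost from some oocytes cannot be told apart.

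The 26S proteasome degrades proteins that carry ubiquitin chains. Its 20S core is a barrel of PSMA rings outside and PSMB rings inside, with the peptide-cutting sites in PSMB5, PSMB6 and PSMB7. The 19S particle caps the barrel: its PSMC ATPases unfold the substrate, and its PSMD subunits bind ubiquitin and remove it. During meiosis the anaphase-promoting complex marks cyclin B and securin for this machine, and their loss lets the oocyte leave metaphase.

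Values are log2 signals as deposited, with each array scaled to a common mean, and they are given in the order of replicates 1, 2 and 3. Signals of different genes come from different probes and are not compared with each other. In 9 of 12 arrays the median of 8 oocyte markers exceeded the array's own median by 6.18 to 8.77 log2 units. The excess was between -0.45 and 0.82 in the other 3, which were replicate 1 of MII prepubertal, GV prepubertal and GV adult. The 13 cumulus and granulosa markers summed to linear signals of 64997 on MII prepubertal replicate 1 and 50654 on GV prepubertal replicate 1, against 3826 to 12780 on the 9 arrays. On GV adult replicate 1 they summed to 3428. STAR, a marker of this list, read 4.91 there and 11.56 to 13.58 on the 9 arrays. STAR was also low on MII prepubertal replicate 1 (8.74) and GV prepubertal replicate 1 (5.10). On GV adult replicate 1 HAS2 (5.41) lay below all 9 arrays as well. Above all 9 there were TNFAIP6 (10.05), INHA (7.99), INHBA (8.47), FST (7.79), CYP11A1 (6.64), AMH (7.43) and FOXL2 (9.09). The median of the cumulus and granulosa markers minus the array's own median was -0.69 there, within the -2.16 to -0.19 of the 9. It was 2.42 on MII prepubertal replicate 1 and 1.41 on GV prepubertal replicate 1. The 7 theca and stroma markers summed to 31115, 15925 and 2403 on these 3 arrays, against 210 to 2047 on the 9, and the 4 blood markers to 154, 446 and 1166 against 54 to 531. Results are given over 12 arrays and over the 9.

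**Figure D1:**
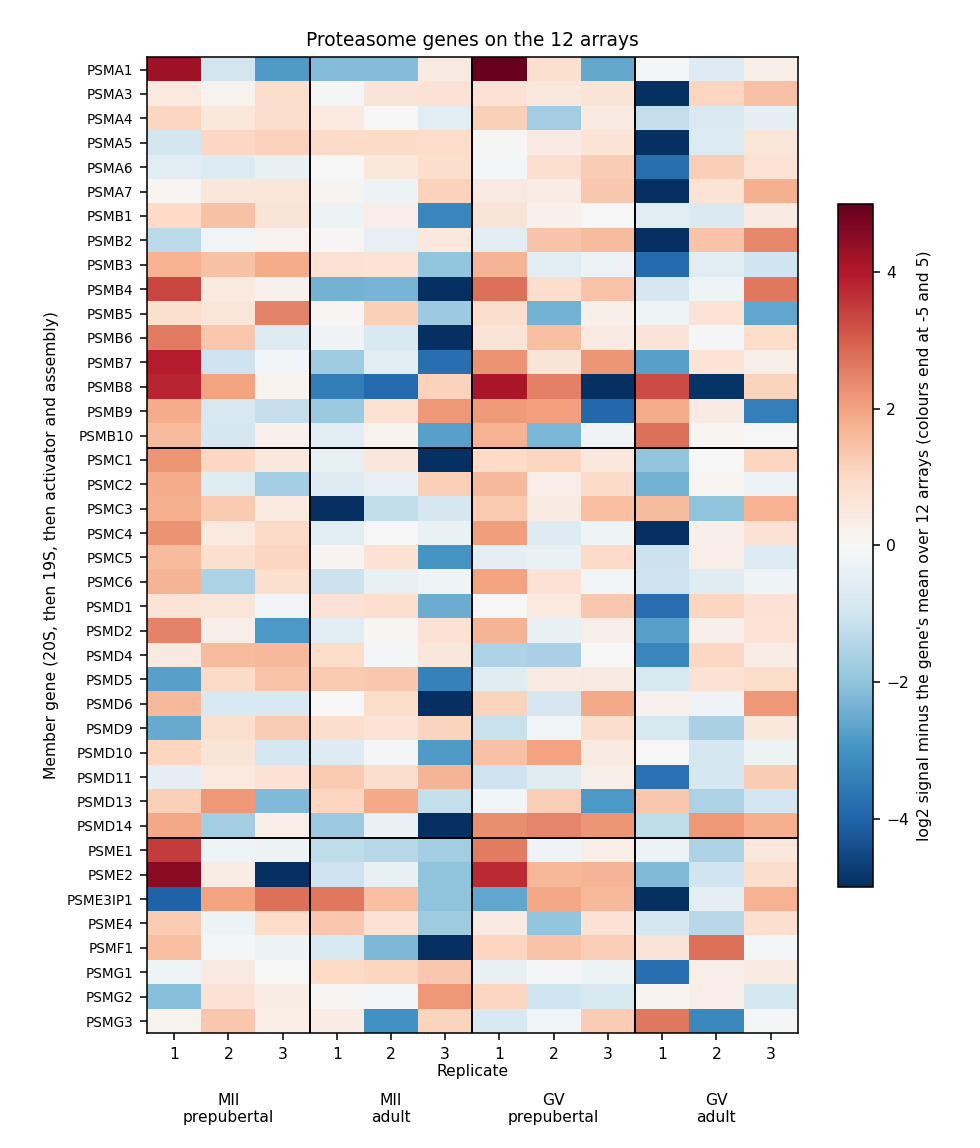
Log2 signal of the 40 members (rows, in classes split by lines) on the 12 arrays (columns, replicates 1 to 3 of each group), each minus the gene's own mean over 12 arrays. MII adult replicate 3 and GV adult replicate 1 each hold the lowest value of 13 members, and MII prepubertal replicate 1 holds the highest of 11.

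The medians of the 40 members set 2 arrays apart from the rest. They were 11.33, 10.31 and 10.15 on MII prepubertal arrays, against 9.74, 10.62 and 7.95 on MII adult arrays. They were 10.94, 10.21 and 10.83 on GV prepubertal arrays, against 8.73, 9.64 and 10.36 on GV adult arrays. MII adult replicate 3 and GV adult replicate 1 were thus the lowest. Their medians over all probe sets, 6.52 and 8.30, were no lower than those of the other adult arrays. Over the tested probe sets the median was 7.37 on MII adult replicate 3, against 7.71 and 8.08 on the other MII adult arrays. It was 8.75 on GV adult replicate 1, against 7.35 and 7.28 on the other GV adult arrays. MII adult replicate 3, which had an oocyte profile (6.79 above its median), read below the other 8 arrays with such a profile in 16 of 39 tested members, and in 21.3% of all 14409 probe sets. GV adult replicate 1 read below all 9 arrays in 13 of 39, and in 19% of all probe sets.

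**Figure D2:**
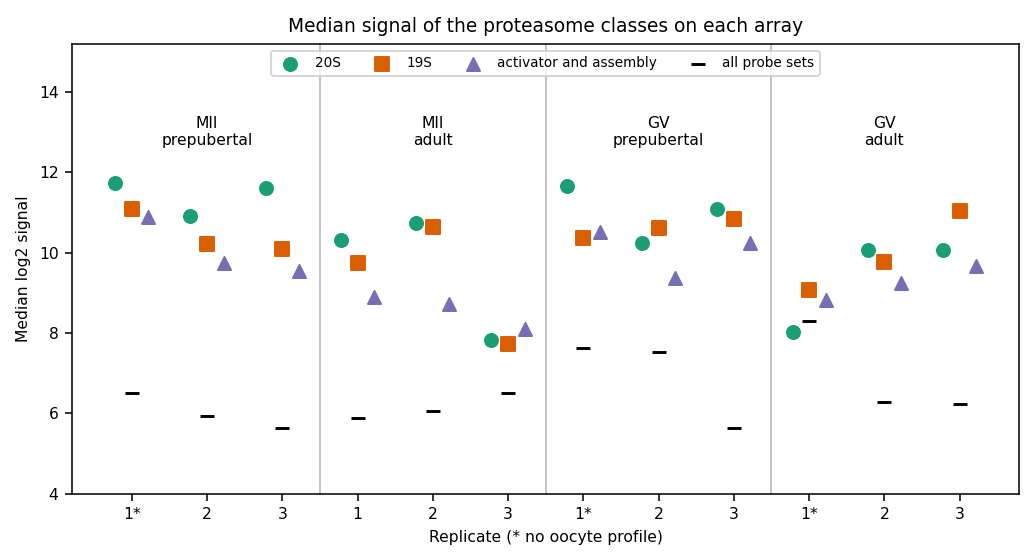
Median log2 signal of the 20S, 19S and activator and assembly classes and of all probe sets on each array; stars mark the 3 arrays without an oocyte profile. Each class is to be compared with itself across arrays: the 3 classes were low on MII adult replicate 3, with medians of 7.83, 7.72 and 8.11.

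The first question is whether proteasome transcripts differed between oocytes of prepubertal and adult donors after maturation. Prepubertal values were higher for 28 of 39 members, with a median log2 difference of 0.87, against 49.4% of all probe sets and a median of -0.02. By class, 12 of 15 tested 20S genes, 11 of 16 19S genes and 5 of 8 activator and assembly genes were higher, with medians of 1.45, 0.81 and 0.62. None passed the threshold: limma gave no member an adjusted p below 0.9997 and called 0 of 14409 probe sets. An unadjusted p under 0.05 with a higher value was reached by 7 members (PSMB4, PSMC3, PSMF1, PSMB6, PSMD14, PSMC1 and PSMB7) and by 1.91% of all probe sets, and one with a lower value by 0 members and 0.75%. Over the 9 arrays 29 members were higher (median 0.74, against 52.3% and 0.07 of all probe sets), and only PSMB4 had an unadjusted p under 0.05 in limma, in a direction that 1.2% of all probe sets shared. Without MII adult replicate 3 as well, over 8 arrays, 27 were higher (median 0.34), against 45.9% of all probe sets (median -0.10). PSMB4 and PSMC3 had an unadjusted p under 0.05 in limma there, as had 2.16% of all probe sets.

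PSMB4, a non-catalytic subunit of the inner ring, had the largest difference of the members between the ages at MII over 12 arrays, but not over 8, where that of PSMC3 was 4.53 (unadjusted p = 0.0212 in limma). It read 13.18, 10.31 and 10.04 in prepubertal MII arrays, against 7.48, 7.53 and 3.89 in adult MII arrays, so the groups did not overlap. The log2 difference was 4.88 (SE 1.32, unadjusted p = 0.00149 in limma, adjusted p = 0.9997). The highest prepubertal value came from the array with high somatic markers and the lowest adult value from MII adult replicate 3. The difference was 3.88 without the first, 3.67 without the second, and 2.67 (unadjusted p = 0.0179 in limma) over 8 arrays without both. At GV, PSMB4 read 12.60, 10.71 and 11.25 in prepubertal arrays, against 9.00, 9.63 and 12.46 in adult arrays, and the groups overlapped. Group means were 11.18 (SD 1.74) at MII in prepubertal donors and 6.30 (SD 2.09) in adults, and 11.52 (SD 0.98) at GV in prepubertal donors and 10.36 (SD 1.84) in adults (n = 3 each).

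**Figure D3:**
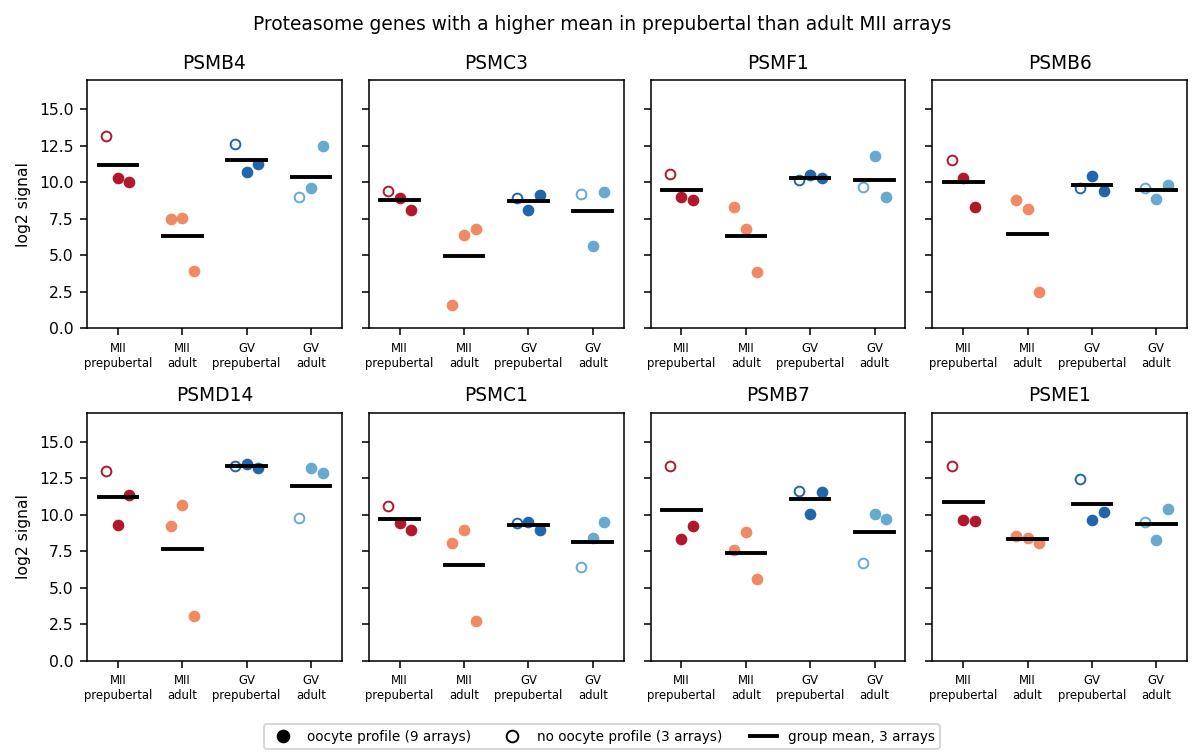
Log2 signal of 8 members in the 4 groups; points are arrays, open points the 3 without an oocyte profile, and bars group means of 3 arrays. In PSMB4 all 3 prepubertal MII arrays (10.04 to 13.18) lie above the adult ones (3.89 to 7.53); in PSMB6, PSMD14 and PSMC1 adult replicate 3 lies far below the other adult MII arrays.

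Of the 3 catalytic subunits, PSMB6 and PSMB7 were among the 7 and PSMB5 was not. PSMB6, which holds the caspase-like site, read 11.56, 10.32 and 8.29 in prepubertal MII arrays, against 8.79, 8.19 and 2.46 in adult MII arrays. Its difference was 3.58 (SE 1.44, unadjusted p = 0.0223 in limma) and was 1.56 without MII adult replicate 3. PSMB7, which holds the trypsin-like site, read 13.34, 8.37 and 9.25 against 7.61, 8.84 and 5.63 in adult MII arrays. Its difference of 2.96 (SE 1.38, unadjusted p = 0.0455 in limma) became 1.45 without the prepubertal array that lacked an oocyte profile. PSMB5, which holds the chymotrypsin-like site, read 10.72, 10.52 and 12.40 in prepubertal MII arrays, against 9.97, 11.13 and 8.11 in adult MII arrays. In all 3 catalytic genes the groups overlapped.

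The interferon-induced counterparts PSMB8, PSMB9 and PSMB10 replace these sites in the immunoproteasome. PSMB8 read 10.16, 8.36 and 6.53 in prepubertal MII arrays and 2.92, 2.47 and 7.53 in adult MII arrays. At GV it read 10.43, 8.90 and 0.51 in prepubertal arrays and 9.64, 1.46 and 7.48 in adult arrays. It had the widest spread within groups of the 39 tested members (residual SD 3.8), and its difference at MII was 4.05 (SE 2.37, unadjusted p = 0.104 in limma). PSMB10 read 7.37, 4.96 and 6.01 in prepubertal MII arrays, against 5.26, 5.94 and 3.05 in adult MII arrays. PSMB9, not tested, read 6.85, 4.19 and 3.86 against 3.13, 5.75 and 7.15 in adult MII arrays. The groups overlapped in all 3 of these genes.

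Among the remaining core genes, PSMB1, PSMB3 and PSMA4 had MII groups that did not overlap, all higher in prepubertal arrays. PSMB3, another subunit of the inner ring, read 11.73, 11.45 and 11.84 in prepubertal MII arrays, against 10.70, 10.68 and 8.01 in adult MII arrays (difference 1.88, SE 1.19). PSMB1 read 11.93, 12.37 and 11.55 against 10.68, 11.25 and 7.65 in adult MII arrays (2.09, SE 1.11). In PSMB1 and PSMB3 MII adult replicate 3 lay well below the other adult MII arrays. PSMA4, of the outer ring, read 11.86, 11.33 and 11.69 against 11.29, 10.81 and 10.27 in adult MII arrays. The ring gene PSMA6 went the other way without overlap, at 12.18, 12.02 and 12.33 in prepubertal MII arrays, against 12.68, 13.26 and 13.59 in adult MII arrays. In all, 9 of 39 members were separated with higher prepubertal values (PSMA4, PSMB1, PSMB3, PSMB4, PSMC3, PSMC4, PSMC5, PSME1 and PSMF1), as were 4.78% of all probe sets. Lower without overlap were 3 (PSMA6, PSMD11 and PSMG1), as were 5.18%. Over the 9 arrays, with 2 prepubertal arrays against 3, 11 members were separated with higher values, against 9.24% of all probe sets, and 3 with lower values, against 9.89%.

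In the 19S particle the ATPases PSMC1, PSMC3, PSMC4 and PSMC5 and the deubiquitinase PSMD14 leaned to higher prepubertal values. PSMC3 read 9.43, 8.92 and 8.11 in prepubertal MII arrays, against 1.59, 6.39 and 6.78 in adult MII arrays (difference 3.90, SE 1.49, unadjusted p = 0.0169 in limma). Its groups did not overlap, and the difference was 2.23 without MII adult replicate 1. PSMC1 read 10.63, 9.46 and 8.95 against 8.05, 8.97 and 2.69 in adult MII arrays (3.11, SE 1.45, unadjusted p = 0.0448 in limma). Its groups overlapped, and it was 1.17 without MII adult replicate 3. PSMC4 read 13.27, 11.52 and 12.00 against 10.48, 11.01 and 10.68 in adult MII arrays, and PSMC5 10.19, 9.42 and 9.69 against 8.75, 9.35 and 5.64. In PSMC5 too MII adult replicate 3 lay well below the other adult MII arrays. In a limma fit without the filter, the other probe set of PSMC5 differed by -0.48 (SE 1.93), against 1.85 (SE 1.25) for the one used. PSMD14, which cuts ubiquitin chains off the substrate, read 12.98, 9.30 and 11.36 against 9.22, 10.70 and 3.07 in adult MII arrays. Its difference of 3.55 (SE 1.60, unadjusted p = 0.0387 in limma) became 1.25 without MII adult replicate 3, and its groups overlapped.

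Among the PSMD genes, PSMD11, PSMD9, PSMD13 (-0.20) and PSMD2 (-0.13) had lower prepubertal means at MII. PSMD11, a scaffold subunit of the lid, read 12.23, 13.18 and 13.41 in prepubertal MII arrays, against 13.97, 13.57 and 14.39 in adult MII arrays (difference -1.04, SE 1.28). PSMD9, a chaperone of 19S assembly, read 8.46, 11.77 and 12.26 against 11.87, 11.66 and 12.09 in adult MII arrays (-1.04, SE 1.17). Only MII prepubertal replicate 1 was low in PSMD9, and without it the difference was 0.14.

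Regulators at the ends of the barrel had higher prepubertal means at MII over 12 arrays, and PSMF1 and PSME1 without overlap. PSMF1, an inhibitor of the 20S core, read 10.56, 9.02 and 8.80 in prepubertal MII arrays, against 8.32, 6.80 and 3.85 in adult MII arrays (difference 3.14, SE 1.25, unadjusted p = 0.0208 in limma). Its groups did not overlap, and the difference was 1.90 without MII adult replicate 3 and 1.35 over 8 arrays. PSME1, a subunit of the 11S activator, read 13.32, 9.64 and 9.60 against 8.57, 8.41 and 8.09 in adult MII arrays (2.50, SE 1.21). The 2 prepubertal arrays with an oocyte profile also lay above all 3 adult ones. PSME2, its partner, read 11.92, 7.77 and 1.16 against 6.37, 7.02 and 5.39 in adult MII arrays, with overlap. Its difference was 0.69 (SE 1.92) over 12 arrays and -1.79 (SE 1.73) over the 9. PSME4, the large ATP-independent activator, read 11.66, 10.16 and 11.34 against 11.75, 11.12 and 8.62 in adult MII arrays.

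The assembly chaperones, which help the PSMA ring to form, were not higher in prepubertal MII arrays, except PSMG3. PSMG1 read 11.25, 11.91 and 11.46 in prepubertal MII arrays, against 12.45, 12.53 and 12.80 in adult MII arrays (difference -1.05, SE 1.17), without overlap. PSMG2 read 7.03, 9.85 and 9.50 against 9.22, 9.05 and 11.31 in adult MII arrays (-1.06, SE 1.17). PSMG3 read 5.93, 7.10 and 6.07 against 6.12, 2.70 and 6.85 in adult MII arrays. These values overlapped in PSMG2 and PSMG3.

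**Figure D4:**
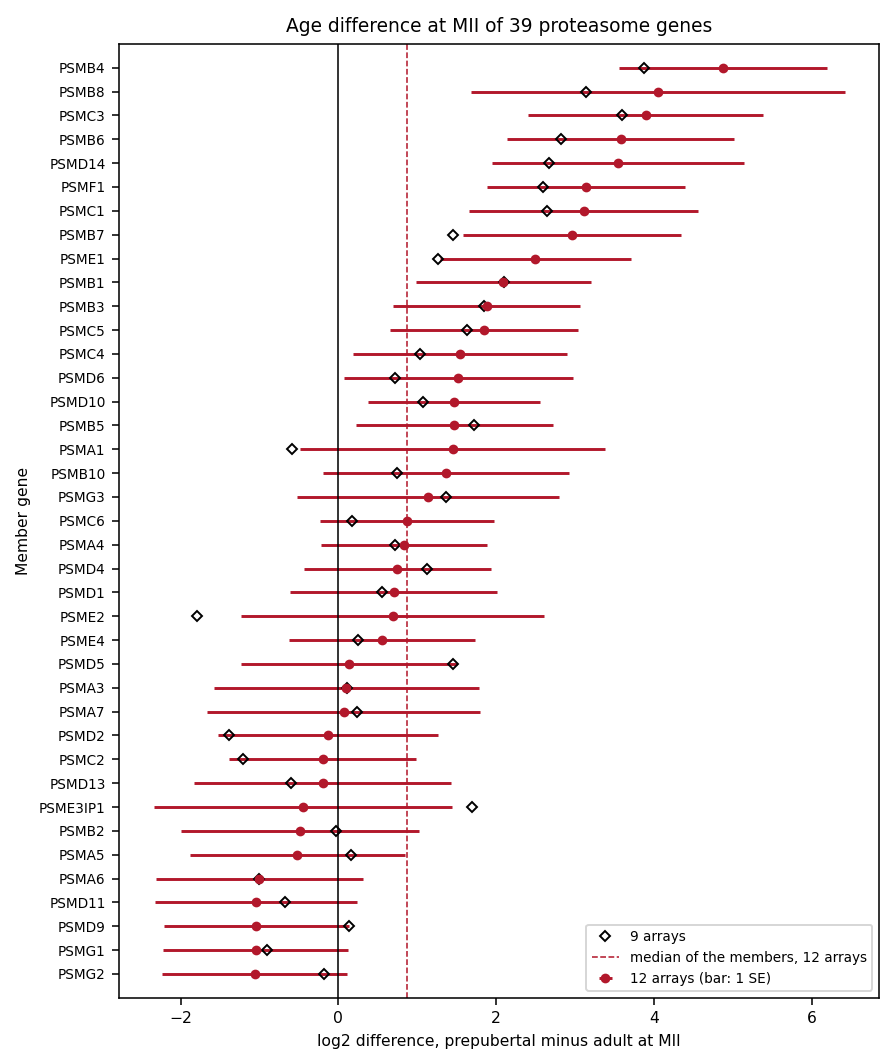
Log2 difference, prepubertal minus adult at MII, of the 39 tested members: filled points with 1 SE over 12 arrays, diamonds over the 9 arrays with an oocyte profile, and a dashed line at the median of 0.87. PSMB4 lies highest at 4.88, and no member is below -1.06 over 12 arrays.

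Before maturation the members were also higher in prepubertal arrays over all 12, and this was not so over the 9. Prepubertal values were higher for 33 of 39 members (median difference 1.13), against 57.6% of all probe sets (median 0.25). No member had an unadjusted p under 0.05 in limma, and 0 of 14409 probe sets passed the adjusted threshold. An unadjusted p under 0.05 was reached by 1.98% of all probe sets with a higher and by 0.527% with a lower prepubertal value. The 9 arrays gave 21 of 39 higher, with a median of 0.08, against 57.0% and 0.23. No member there had an unadjusted p under 0.05 in limma either, against 3.24% of all probe sets higher and 1.39% lower. Without GV adult replicate 1 alone it was 25 of 39 (median 0.33), against 59.8% of all probe sets (median 0.37). Both GV arrays left out in the 9 were low in oocyte markers, and the prepubertal one also carried high cumulus markers. The part of other cells in the difference was not tested.

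The members with the smallest unadjusted p at GV show the low values of GV adult replicate 1. PSMB3 read 11.67, 9.46 and 9.69 in prepubertal GV arrays, against 6.16, 9.48 and 9.01 in adult GV arrays (difference 2.06, SE 1.19, and 0.33 over the 9 arrays). PSMB7 read 11.65, 10.03 and 11.59 against 6.70, 10.09 and 9.69 in adult GV arrays (2.26, SE 1.38, and 0.92). PSMA5, of the outer ring, read 12.73, 13.11 and 13.35 against 7.54, 12.01 and 13.27 in adult GV arrays (2.12, SE 1.36, and 0.59). PSME2 differed in that its groups did not overlap, at 11.13, 9.07 and 9.08 in prepubertal GV arrays, against 5.19, 6.42 and 8.26 in adult GV arrays (3.14, SE 1.92, and 1.74). Groups without overlap and with higher prepubertal values were found for 5 of 39 members (PSMC2, PSMC6, PSMD10, PSMD14 and PSME2), as for 3.8% of all probe sets, and with lower values for 0 members, against 1.88%. The 9 arrays, with 2 GV arrays per age, separated the same 5 with higher values, against 16.2% of all probe sets, and 6 with lower values (PSMA3, PSMB10, PSMC4, PSMD4, PSMD5 and PSMG1), against 11.0%. PSMD10, the assembly chaperone also known as gankyrin, read 11.82, 12.37 and 10.83 in prepubertal GV arrays, against 10.38, 9.47 and 10.10 in adult GV arrays.

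A lower prepubertal mean at GV was found for 6 of 39 members. PSMB10 read 7.53, 3.48 and 5.60 in prepubertal GV arrays, against 8.54, 5.89 and 5.76 in adult GV arrays (difference -1.19, SE 1.56). PSMD4, a ubiquitin receptor of the 19S particle, read 9.10, 9.03 and 10.67 against 7.38, 11.67 and 11.01 in adult GV arrays (-0.42, SE 1.18). Over the 9 arrays PSMD4 was separated with lower prepubertal values at GV (-1.49, SE 0.85) and with higher ones at MII, where it read 11.12, 12.23 and 12.27 in prepubertal arrays, against 11.59, 10.56 and 11.22 in adult arrays (1.13, SE 0.78). PSMD5, a chaperone of 19S assembly, read 10.34, 11.32 and 11.36 in prepubertal GV arrays, against 10.14, 11.64 and 11.86 in adult GV arrays. The lid subunit PSMD13 read 6.16, 7.54 and 3.44 against 7.66, 4.70 and 5.33 in adult GV arrays. Both overlapped between the ages, with a difference of -0.21 (SE 1.37) for PSMD5 and -0.18 (SE 1.63) for PSMD13.

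Next, MII was compared with GV within each age, which asks how transcript levels differ after maturation. Over 12 arrays the members were divided: 19 of 39 were higher at MII in prepubertal donors (median -0.02, all probe sets -0.29 and 41.2% higher) and 21 of 39 in adults (median 0.37, all probe sets -0.10 and 48.2% higher). On the 9 arrays it was 20 of 39 in prepubertal donors (median 0.00, against 46.6% and -0.14) and 13 of 39 in adults (median -0.61, against 51.1% and 0.05). The adult median changed sign without GV adult replicate 1 (-0.61), without MII adult replicate 1 (-0.07) and without MII adult replicate 2 (-0.04). It was also negative over 8 arrays (-0.30), with probe sets averaged per gene (-0.18) and with the letter b of the array titles as a covariate (-0.18). No member passed the threshold in limma at either age. In adults 4 members (PSMB4, PSMF1, PSMD14 and PSMC3) had an unadjusted p under 0.05 in limma with a lower value at MII, as had 3.85% of all probe sets, and 0 with a higher value, as had 4.08%. In prepubertal donors it was 0 members in either direction, against 2.19% of all probe sets lower and 1.22% higher, and, once replicate numbers entered as a block, 6 members over both directions against 10.1%. On the 9 arrays limma gave an unadjusted p under 0.05 to PSMD4 with a higher value at MII in prepubertal donors (3.57% of all probe sets) and to PSMA6, PSMB2, PSMC2 and PSME2 with a lower one (3.42%). In adults it was PSMB2, PSMB4, PSMB7, PSMD14 and PSMF1 with a lower one (4.48%) and 0 members with a higher one (6.94%), and none of the 17 probe sets (0.118%) called there was a member. The adult maturation difference and the age difference at MII share the 3 adult MII arrays, so the low values of PSMB4, PSMF1, PSMD14 and PSMC3 there enter both.

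PSMB4, PSMF1 and PSMD14 had the largest adult differences. PSMB4 read 7.48, 7.53 and 3.89 at MII, against 9.00, 9.63 and 12.46 at GV in adults, without overlap (difference -4.07, SE 1.32, unadjusted p = 0.00602 in limma, adjusted p = 0.5635). It was -4.75 over the 9 arrays and -2.86 without MII adult replicate 3. PSMF1 read 8.32, 6.80 and 3.85 at MII, against 9.70, 11.83 and 8.97 at GV in adults, also without overlap (-3.85, SE 1.25, unadjusted p = 0.00607 in limma, adjusted p = 0.5635). In prepubertal donors PSMF1 read 10.56, 9.02 and 8.80 at MII, against 10.13, 10.48 and 10.31 at GV. Groups in adults that did not overlap were lower at MII for 3 members (PSMB4, PSMB6 and PSMF1) and higher for 3 (PSMA5, PSMD9 and PSMG1), close to the 7.19% and 8.11% of all probe sets.

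Among the 9 arrays with an oocyte profile, PSMD14 read lower on every MII array than on any GV array. Replicates 2 and 3 read 9.30 and 11.36 at MII in prepubertal donors, against 13.49 and 13.24 at GV. Adult MII arrays read 9.22, 10.70 and 3.07, against 13.22 and 12.84 on GV adult replicates 2 and 3. The 4 GV values lay close together at both ages, while the 5 MII values were spread widely, with the lowest on MII adult replicate 3. The arrays without an oocyte profile read 12.98 at MII and 13.37 at GV in prepubertal donors and 9.77 at GV in adults. Over 12 arrays the adult difference was -4.28 (SE 1.60, unadjusted p = 0.0148 in limma) and the prepubertal one -2.15 (SE 1.60, unadjusted p = 0.194 in limma). On the 9 arrays the adult difference was -5.37 (SE 1.60, unadjusted p = 0.00441, adjusted p = 0.1879 in limma). The prepubertal one was -3.03 (SE 1.75, unadjusted p = 0.104 in limma). Over 8 arrays, without MII adult replicate 3, they were -3.07 (unadjusted p = 0.00136 in limma) and -3.03 (unadjusted p = 0.0015 in limma). There 13.6% of all probe sets in adults and 10.0% in prepubertal donors had an unadjusted p under 0.05 in limma. No member had an adjusted p below 0.09955 in adults or 0.2123 in prepubertal donors in that limma fit.

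Besides PSMD14, PSMB2 and PSMB7 read lower in all 5 MII arrays than in all 4 GV arrays with an oocyte profile, and PSMA5 read higher. This made 3 of 39 members lower and 1 higher, against 3.53% and 3.82% of all probe sets. PSMB2, a non-catalytic subunit of the inner ring, read 10.23, 11.45 and 11.77 in MII prepubertal arrays and 11.64, 11.15 and 12.12 in MII adult arrays, against 11.00, 12.99 and 13.15 in GV prepubertal arrays and 6.48, 12.99 and 13.97 in GV adult arrays. Its maturation difference on these arrays was -1.47 (SE 0.65) for prepubertal and -1.84 (SE 0.59) for adult donors, and over 12 arrays -1.23 and 0.49. A dimmer probe set of PSMB2 did not separate the stages: its 5 MII values ran from 3.48 to 9.62 and its 4 GV values from 5.70 to 10.52. PSMA5 read 11.75, 13.71 and 13.84 in MII prepubertal arrays and 13.62, 13.64 and 13.60 in MII adult arrays, against 12.73, 13.11 and 13.35 in GV prepubertal arrays and 7.54, 12.01 and 13.27 in GV adult arrays. The adult difference of PSMA5 was 2.68 (SE 1.36) over 12 arrays and 0.98 (SE 0.48) over the 9.

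**Figure D5:**
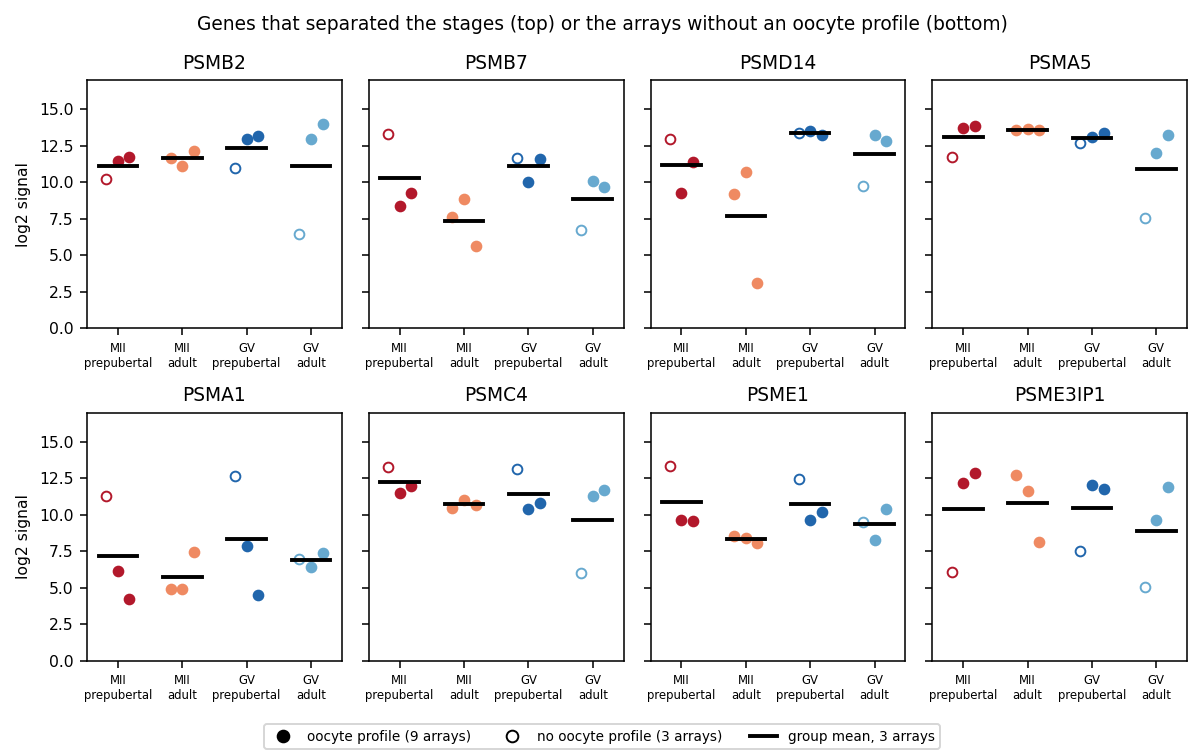
Log2 signal of 8 members in the 4 groups, drawn as points for arrays, open where the oocyte profile was lacking, with bars for group means. In the upper row the filled MII points lie on one side of the filled GV points (PSMD14: 3.07 to 11.36 against 12.84 to 13.49); in the lower row PSMA1, PSMC4 and PSME1 are highest on both prepubertal replicate 1 arrays, and PSME3IP1 is low there.

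PSMD11 and PSMG1 had higher means at MII in adults, and PSMC3 a lower one. PSMD11 read 13.97, 13.57 and 14.39 at MII, against 8.93, 11.84 and 13.94 at GV in adults (difference 2.41, SE 1.28, and 1.09 over the 9 arrays). PSMG1 read 12.45, 12.53 and 12.80 at MII, against 7.70, 11.79 and 11.91 at GV in adults (2.12, SE 1.17, and 0.74). PSMG1 was also the member with the smallest spread within groups over the 9 arrays (residual SD 0.20). PSMC3 read 1.59, 6.39 and 6.78 at MII, against 9.23, 5.62 and 9.35 at GV in adults (-3.15, SE 1.49, unadjusted p = 0.048 in limma), and -1.48 without MII adult replicate 1.

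In prepubertal donors the ubiquitin receptor PSMD4 stood out among the higher values and PSME2 among the lower. PSMD4 read 11.12, 12.23 and 12.27 at MII, against 9.10, 9.03 and 10.67 at GV in prepubertal donors, without overlap (difference 2.27, SE 1.18, unadjusted p = 0.0693 in limma). On the 9 arrays it was 2.40 (SE 0.85, unadjusted p = 0.0132, adjusted p = 0.6706 in limma). Its other probe set was also higher at MII in prepubertal donors, by 2.48 (SE 1.30). PSME2 read 11.92, 7.77 and 1.16 at MII, against 11.13, 9.07 and 9.08 at GV (-2.81, SE 1.92), a difference that was 0.08 without MII prepubertal replicate 3. PSMA6 was separated as well, at 12.18, 12.02 and 12.33 at MII, against 12.67, 13.54 and 13.98 at GV in prepubertal donors (-1.22, SE 1.31). Separated groups were found for 1 member with higher values (PSMD4) and 2 with lower (PSMA6 and PSMD14), near the 3.66% and 6.05% of all probe sets.

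Other prepubertal differences between the stages were those of PSMB5, PSMB3, PSMC5, PSMC2 and PSMD10. PSMB5 read 10.72, 10.52 and 12.40 at MII, against 10.79, 7.56 and 10.18 at GV in prepubertal donors (difference 1.70, SE 1.25, and 2.59 over the 9 arrays), and PSMB3 differed by 1.40 (SE 1.19) and 2.07. PSMC5 read 10.19, 9.42 and 9.69 at MII, against 8.11, 8.27 and 9.56 at GV (1.11, SE 1.19). Its other probe set went the other way in a limma fit without the filter (-2.97, SE 1.93). PSMC2, an ATPase of the base, read 13.51, 11.04 and 9.95 at MII, against 13.29, 11.99 and 12.61 at GV (-1.13, SE 1.19, and -1.81 over the 9 arrays). PSMD10 read 11.43, 11.00 and 9.48 at MII, against 11.82, 12.37 and 10.83 at GV (-1.04, SE 1.09). Over 12 arrays the stages overlapped in each of these genes. The 9 arrays separated 12 of 39 members with higher MII values, among them PSMB5 and PSMB3, against 19.4% of all probe sets. They separated 9 with lower values, among them PSMC2, against 20.8%.

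Whether maturation acted differently at the 2 ages was tested as an interaction, in which 20 of 39 members and 43.7% of all probe sets were positive and no member passed in limma (0 of 39 with an unadjusted p under 0.05, against 0.375% of all probe sets higher and 0.833% lower). The members' median interaction was 0.03, against -0.27 for all probe sets. On the 9 arrays 27 of 39 members were positive (median 0.62), against 46.2% of all probe sets (median -0.17). Among the positive interactions, in which the change was higher in prepubertal donors, PSMB4 (3.72, SE 1.86, unadjusted p = 0.0601 in limma), PSMF1 (3.0, SE 1.76), PSMB6 (3.21, SE 2.03) and PSMC3 (3.26, SE 2.11) had the smallest p. Among the negative ones PSMA5 (-2.64, SE 1.93), PSMA6 (-2.30, SE 1.85), PSMC2 (-2.04, SE 1.69) and PSMG1 (-1.81, SE 1.66) had the smallest p. With 9 arrays the interaction of PSMB4 was 3.94 (SE 1.90, unadjusted p = 0.0564 in limma) and that of PSMD4 2.61 (SE 1.15, unadjusted p = 0.0388 in limma), the only member with an unadjusted p under 0.05 there (0.979% of all probe sets higher, 2.08% lower).

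The 2 prepubertal replicate 1 arrays, which had high somatic and low oocyte markers, carried a different balance of members. Both read above all 9 arrays with an oocyte profile in 12 of 39 members (PSMA1, PSMA4, PSMB4, PSMB7, PSMB8, PSMB10, PSMC2, PSMC4, PSMC6, PSMD2, PSME1 and PSME2), as in 13.7% of all probe sets. Both read below all 9 in 2 (PSMB2 and PSME3IP1), as in 9.27%. PSMA1, of the outer ring, read 11.28 at MII and 12.65 at GV on these arrays, against 4.21 to 7.84 on the 9. The activator subunit PSME1 read 13.32 and 12.45 against 8.09 to 10.38, and PSME2 11.92 and 11.13 against 1.16 to 9.08. The ATPase PSMC4 read 13.27 and 13.13 against 10.39 to 12.00 on the 9. PSME3IP1 read 6.09 and 7.53 on these arrays, against 8.13 to 12.89. These are 2 arrays chosen by marker genes, so no test was made.

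Some members varied little between arrays with an oocyte profile. Across these 9 PSMA3 ran from 12.46 to 14.03, PSMG1 from 11.20 to 12.80, PSMC4 from 10.39 to 12.00 and PSMA5 from 12.01 to 13.84. At the other end, PSMD14 spanned 10.42 log2 units, PSMB4 8.58, PSMB8 8.39, PSMB6 8.00 and PSMF1 7.98. The median residual SD of the members was 1.70 over 12 arrays and 1.22 over the 9, against 1.86 and 1.5 for all kept probe sets. For the 6 genes with another probe set (PSMB2, PSMC2, PSMC5, PSMC6, PSMD4 and PSMD6), the sign of the difference matched in 4 of 6 for each age comparison, 4 of 6 for prepubertal and 3 of 6 for adult maturation. In a limma fit without the filter, the other probe set of PSMD6 differed by -5.82 (SE 1.83) in adult maturation, against -2.24 (SE 1.44) for the one used.

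Of 36 genes that act with the proteasome without matching the naming rule, such as ubiquitin genes, shuttle factors and the transcription regulators NFE2L1 and NFE2L2, 24 had a probe set and 23 were tested. At MII 13 of 23 were higher in prepubertal arrays over 12 arrays (median 0.26), against 49.4% of all probe sets (median -0.02). Over the 9 it was 11 of 23 (median -0.10), against 52.3% (median 0.07). At GV it was 17 of 23 over 12 arrays (median 0.51), against 57.6% of all probe sets (median 0.25). Over the 9 it was 8 of 23 at GV (median -0.42), against 57.0% (median 0.23). None passed the threshold in limma over 12 arrays. With 9 arrays HSP90AA1, a chaperone that aids proteasome assembly in yeast, was just under it in adult maturation (difference -2.80, SE 0.50, adjusted p = 0.0497 in limma), as 1 of the 17 probe sets (0.118%) called there. With median centring of the 9 arrays this call was lost, since 0 probe sets were called and the lowest adjusted p in limma was 0.07063, with 8.95% of all probe sets at an unadjusted p under 0.05. POMP, the chaperone that matures the 20S core, read 14.54, 13.59 and 14.50 in prepubertal MII arrays, against 13.32, 13.25 and 9.72 in adult MII arrays. Among the 9 arrays POMP differed by 1.95 (SE 0.84, unadjusted p = 0.0341 in limma) between the ages at MII and by -1.99 (SE 0.84, unadjusted p = 0.0312 in limma) in adult maturation. As in many members, its lowest value was on MII adult replicate 3. The shuttle factor UBQLN4 (-4.09, SE 1.88) and UBQLN1 (2.36, SE 1.13) had the smallest unadjusted p of these genes in adult maturation over 12 arrays.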

How the data were processed

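RNA of 12 oocyte pools was hybridised to Affymetrix bovine arrays. The authors deposited log2 signals per probe set, made with MAS5 per the submitters' processing notes (version not stated there). The linear values of each array have a trimmed mean of 500. Of 24128 probe sets, 112 controls were left out and 14409 with a mean above the 40th percentile (5.573) were tested. Platform annotation gave 1 symbol to 13292 probe sets, several to 86 and none to 10638.

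Group means were fitted to all 4 groups with limma 3.58.1 in R 4.3.3 (lmFit and eBayes), with Benjamini-Hochberg adjustment over all tested probe sets and a threshold of 0.05, and the procedure was tested on simulated data. Residual degrees of freedom were 8 over 12 arrays, 5 over the 9 and 4 over 8. The number of arrays limits the precision. Members named with all values are PSMB4 to PSMB10, PSMD14, the activators, inhibitor and chaperones, and up to 4 members per direction and comparison with the smallest p. Other genes are named from separated groups or ranges. Members, lists and rule were chosen with earlier results of these data known. Same-numbered MII and GV arrays of prepubertal donors deviated together (r = 0.609, 0.149 and 0.306 for replicates 1, 2 and 3, all over 0.1). In no other comparison was every r over 0.1. Both replicate 1 arrays of that comparison lacked an oocyte profile. The fits left such pairing out, except where a replicate block is named. Alternatives were other arrays, normalizations, filters, a pseudocount of 32, a replicate block, averaging probe sets per gene, leaving out each array, and a covariate for the letter b. Titles hold this letter, whose meaning is not given, on GV replicates 1 and 2 at either age but on no MII array, so it partly follows stage. Promoter sequences were not analysed here.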

Additional observations from a re-analysis of the deposited data

How the results depend on the processing

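Limits are the 3 arrays per group, 3 arrays without an oocyte profile and the low MII adult replicate 3. No member passed in limma over 12 arrays, and leaving out each array called 0 probe sets in every comparison. In adult maturation 17 probe sets were called over 9 arrays, 69 over 8 arrays and 16 over 9 arrays with quantile normalization, but 0 over 9 arrays with median centring (lowest adjusted p 0.07063 in limma, 1290 probe sets at an unadjusted p under 0.05); prepubertal maturation gave 5 over 8 arrays. With the replicate block, adult maturation gave 7 calls, and the other comparisons 0. The 9-array fits with quantile normalization or median centring were chosen after seeing the data. The causes of the shifts below were not tested, beyond the arrays left out.

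The members' median difference between ages at GV (1.13) was 0.08 over 9 and 8 arrays, -0.02 over 9 arrays with quantile normalization and -0.25 with median centring. That of adult maturation (0.37) was -0.61 over 9 arrays, -0.70 with quantile normalization and -0.51 with median centring of these, -0.30 over 8 arrays, and -0.18 both with the letter b as a covariate and with probe sets averaged per gene. That of prepubertal maturation was 0.88 with median centring of 12 arrays, where the median of all probe sets was 0.62, and that of the interaction 1.32 with median centring of 9. Leaving out each array gave medians of 0.33 to 1.68 at GV, 0.58 to 1.29 at MII, -0.17 to 0.35 in prepubertal and -0.61 to 0.46 in adult maturation, and -0.40 to 0.73 in the interaction.

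Signs turned for PSMD5 at GV (0.03 with quantile normalization), PSMD13 at GV (0.48 over 9 and 8 arrays, 0.22 and 0.15 with quantile normalization and centring of 9), PSMG2 at MII (0.55 over 8 arrays, 0.19 with centring of 9), PSMD9 at MII (0.14 over 9 arrays, 0.25 over 8, 0.19 and 0.51 with quantile normalization and centring of 9), and the interactions of PSMA5 (0.27) and PSMG1 (0.35) with centring of 9. Leaving out each array, PSMD4 at GV ran from -1.74 to 0.41, PSMD5 from -0.74 to 0.13, PSMD13 from -1.10 to 0.96, PSMD9 at MII from -1.76 to 0.14 and PSME2 in prepubertal maturation from -5.30 to 0.08.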
